A study of Mus musculus with 12 samples.

Results

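Cytosolic ribosomal protein genes were followed across 12 RNA-seq libraries of mouse dorsal hippocampus at postnatal day 7. They were chosen by name: protein-coding genes whose symbols start with Rpl or Rps and a digit, with Rplp0, Rplp1, Rplp2 and Rpsa, leaving out the S6 kinase names (Rps6k) and names with -ps. The rule found 86 of the 52634 genes in the count table, 52 with large-subunit and 34 with small-subunit symbols. Of these, 77 encode core ribosomal proteins (46 large, 31 small), 8 are paralogs of a core gene, and Rps19bp1 encodes a protein that binds Rps19. Fau and Rack1, whose products are also ribosomal, have names outside the rule. Another 7 matching names were not protein-coding and 291 rows with -ps names were left out, the -ps rows together holding 123.2 to 145.0 CPM (counts per 1000000 counts of the library) in a library.

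The cytosolic ribosome joins a small subunit, which reads the mRNA, to a large subunit, which forms peptide bonds, and nearly every core protein is present in a single copy per ribosome. Many mRNAs of ribosomal proteins begin with a C followed by a run of pyrimidines (a 5′ terminal oligopyrimidine, or TOP, start), through which mTOR signalling and the protein LARP1 adjust their translation together. In developing neurons ribosomes also work in dendrites and axons, where part of this mRNA is carried.

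SERTPyramid pups, in which the study removes the serotonin transporter gene Slc6a4 from pyramidal neurons, were compared with SERTfl/fl pups, which carry the floxed gene. The groups were labelled-female SERTPyramid, labelled-female SERTfl/fl, labelled-male SERTPyramid and labelled-male SERTfl/fl, with 3 libraries each and dorsal hippocampus of 4 mice pooled per library. No source used here gives the Cre driver or says whether pools shared litters, and p-values therefore measure only the spread between libraries. A pool of whole tissue holds many cell types, and fewer cells of a type and less RNA per cell cannot be told apart.

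Depth ran from 18747249 to 25522347 counts per library. At that depth 3 counts, the upper limit that a count of 0 allows (counting error only), equalled 0.118 to 0.16 CPM. Slc6a4 itself had 1 to 12 counts in SERTPyramid libraries and 0 to 17 in SERTfl/fl libraries, too few to check the genotype. X- and Y-linked transcripts did not match the label of sex in 10 of 12 libraries, the exceptions being replicate 1 of each SERTfl/fl group. Summed Y-linked counts (Ddx3y, Uty, Kdm5d and Eif2s3y) were 2908 to 3151 in labelled-female SERTPyramid libraries, against 1, 3059 and 2849 in labelled-female SERTfl/fl libraries. They were 2 to 6 in labelled-male SERTPyramid libraries, against 2159, 0 and 4 in labelled-male SERTfl/fl libraries. Sex is therefore given as the label only, and results are also given without those SERTfl/fl replicates. All 8 markers of hippocampal pyramidal neurons were detected, with summed levels of 4790 to 5753 CPM in SERTPyramid libraries and 5112 to 5737 CPM in SERTfl/fl libraries.

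The annotated start sites show the sequence feature by which this family is best known. RefSeq promoters on GRCm38.p6 were matched for 57 of the 77 core genes. A start of C followed by 4 pyrimidines was found in 13 of the 57 (22.8%), against 3.01% of 27025 genes in the same table. Others had a pyrimidine run across the annotated start but no C as first base. Among these, Rpl7a (21 bases) and Rpl27a (14 bases) were counted as without such a start. The lines below run from 20 bases before the start to the 10th transcribed base, 5′ to 3′, with the pyrimidine run that spans the start in capitals. The first 6 genes, from both subunits and the stalk, have a start of C followed by 4 pyrimidines.
Rpl15 (chr14:18270977-18271006, minus strand): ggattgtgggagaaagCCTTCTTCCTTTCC
Rpl35 (chr2:39005122-39005151, minus strand): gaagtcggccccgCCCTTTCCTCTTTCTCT
Rplp2 (chr7:141447631-141447660, plus strand): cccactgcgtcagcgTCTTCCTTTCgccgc
Rps6 (chr4:86857358-86857387, minus strand): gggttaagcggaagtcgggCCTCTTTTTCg
Rps10 (chr17:27635235-27635264, minus strand): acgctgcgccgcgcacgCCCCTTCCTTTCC
Rps18 (chr17:33955656-33955685, minus strand): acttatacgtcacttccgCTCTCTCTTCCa
Rpl4 (chr9:64173367-64173396, plus strand): agtctttccttttcctgtgggagcagccgg
Rps27l (chr9:66946066-66946095, plus strand): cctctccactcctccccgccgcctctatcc
Rpl22l1 (chr3:28805488-28805517, plus strand): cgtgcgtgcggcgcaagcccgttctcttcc

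The last 3 lines are shown for contrast: Rpl4, which had the most CPM of the family, and the paralogs Rps27l and Rpl22l1 have no pyrimidine run across the annotated start. In Rpl4 a pyrimidine stretch lies just before it. Both paralogs have such a stretch right after the first transcribed base. The letters CTTTCC or CTCTTT, searched on the transcribed strand from 20 bases before to 30 after the start, were in 18 of 57 core genes (31.6%), against 4.62% of all genes. CCGGAAG, the core of ETS-family binding motifs, was found on either strand of the 300-base promoter (250 bases before to 50 after the start) in 24 of 57 (42.1%), against 9.93% of all genes. GCCATC, a core of the YY1 motif, was in 14 of 57 (24.6%), against 15.9%. CTTTCC and CTCTTT can overlap the pyrimidine run, and a match is a description of letters, not of binding.

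Together the 86 genes held 0.632 to 0.73% of all counts in a library. Levels between genes were compared as CPM per kb of the principal transcript, averaged over the 12 libraries. Core genes had a median of 90 CPM per kb and ran from 1.44 to 411, with medians of 83.6 for large-subunit and 98.2 for small-subunit genes. The highest was Rplp1, a protein of the stalk that recruits elongation factors, at 411 CPM per kb. Rps9, which lies at the mRNA entry of the small subunit, had 333, and Rpl8, close to the peptidyl transferase centre, had 332. Rpl4, which lines the peptide tunnel, had 309. Neighbours among these named genes had overlapping libraries, as the plot of levels shows.

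The lowest levels among core genes belonged to genes that share sequence or exon bases with others, though sharing is common in the family. Rpl24 had 1.44 CPM per kb, with 81.7% of its 50-base words also found in other genes and 71.5% of its exon bases inside Gm28037. Rpl23a, at the mouth of the peptide tunnel, had 1.46 CPM per kb, with 85.7% shared words and 55.4% of exon bases inside Tlcd1. Rpl17 had 8.82 and Rpl13a 12.5 CPM per kb, with 78.7% and 57.4% shared words, and 59.3% of Rpl13a's exon bases lie inside Gm45713 and Mir5121. Over the 77 core genes the median was 56.6% shared words. Next lowest came Rps15a, at 18.7 CPM per kb, with 6.1% shared words and 0% of exon bases in another gene. The 5 core genes with over 50% of exon bases in another gene had a median of 12.5 CPM per kb, against 91.3 for the 64 with none. Among core genes with over 25% shared words, the median level did not fall as shared words rose. The 23 core genes with over 75% shared words had a median of 90.8 CPM per kb, against 84.1 for the 24 with over 50 to 75%. It was 83.8 for the 21 with over 25 to 50%. The 9 with at most 25% had a median of 145. The highest level differed: it was 121 CPM per kb in the group with over 75%, against 411, 333 and 332 in the other groups, in the same order. No source used here says how the authors' counting treated reads that fit several genes, and these levels are uncertain. A level per kb also depends on the transcript chosen: those of Rps15a and Rps20 are annotated at 5130 and 3706 bases, and no other length was tried.

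**Figure D1:**
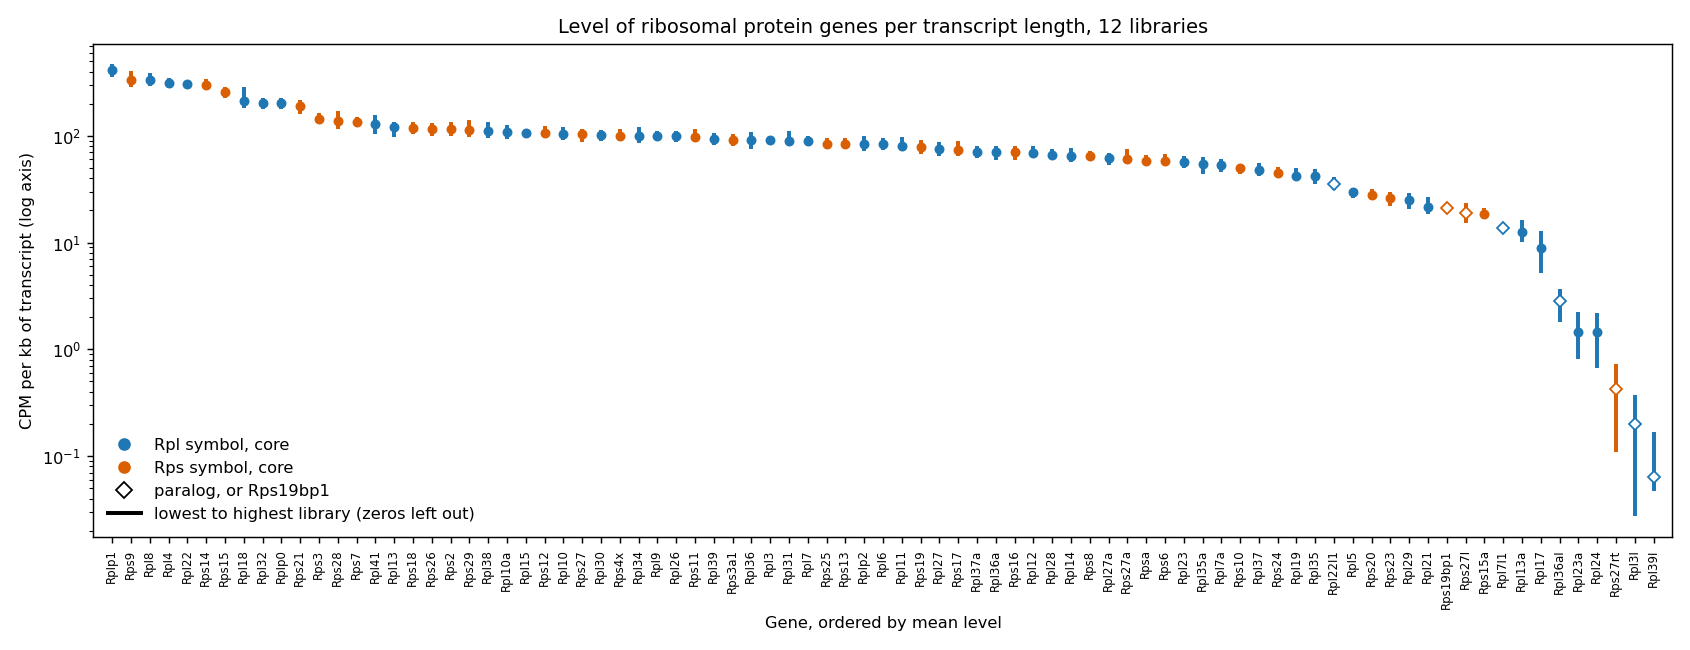
Levels of the ribosomal protein genes reported here in CPM per kb of transcript (log axis), ordered by mean; points are means over 12 libraries and bars run from the lowest to the highest library, zeros left out. Most core genes lie near the median of 90, Rplp1 leads at 411, and Rpl23a and Rpl24 lie at the low end with paralogs; Rpl10l, at 0, is not drawn.

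The paralogs lay at the low end. Rpl10l and Rpl39l are known for their expression in the testis. Rpl10l had 0 counts in every library, and Rpl39l had at most 3 counts in any. Rpl3l, which replaces Rpl3 in muscle, had 4 to 10 counts in SERTPyramid libraries and 1 to 12 in SERTfl/fl libraries. Rps27rt had at most 6 counts, and these 4 genes did not pass the filter on low counts, which left 82 of the 86 for testing. Rpl22l1, a paralog of the RNA-binding protein Rpl22, was at 11.8% of Rpl22 per kb. Rpl7l1 was at 15.2% of Rpl7, and Rpl36al, with 63.1% of exon bases inside Gm49383, at 4.04% of Rpl36a. Rps27l, a p53-responsive paralog of Rps27, was at 18.5% of Rps27 per kb.

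Paralog counts were in similar proportion to their core gene in the 4 groups. Rpl22l1 counts were 13.5 ± 0.492% of Rpl22 counts in labelled-female SERTPyramid and 14 ± 0.63% in labelled-female SERTfl/fl libraries, and 13.4 ± 0.15% in labelled-male SERTPyramid and 13.9 ± 0.83% in labelled-male SERTfl/fl libraries (SD, n = 3 each). Rps27l counts were 24.1 ± 1.69% of Rps27 counts in labelled-female SERTPyramid and 27.5 ± 3.79% in labelled-female SERTfl/fl libraries, a difference below the SERTfl/fl SD but above that of SERTPyramid. In labelled males they were 26.9 ± 3.48% in SERTPyramid and 28.6 ± 0.281% in SERTfl/fl libraries. Rps19bp1, which is no ribosomal protein, had 17.9 ± 0.135 CPM in labelled-female SERTPyramid and 16.8 ± 0.177 CPM in labelled-female SERTfl/fl libraries, and 18.5 ± 0.577 CPM in labelled-male SERTPyramid and 17.9 ± 0.607 CPM in labelled-male SERTfl/fl libraries.

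Most genes of the family shifted together from library to library. The summed level was 6845, 6658 and 6760 CPM in labelled-female SERTPyramid libraries, against 6376, 6750 and 6614 CPM in labelled-female SERTfl/fl libraries. It was 6337, 6848 and 7295 CPM in labelled-male SERTPyramid libraries, against 7029, 6320 and 6572 CPM in labelled-male SERTfl/fl libraries. The groups overlapped under both labels, and the highest and second-lowest of all 12 sums belong to the labelled-male SERTPyramid group. In labelled females the mean was 6755 ± 93.5 CPM in SERTPyramid and 6580 ± 189 CPM in SERTfl/fl libraries, a difference of 2.65%. In labelled males it was 6826 ± 480 CPM in SERTPyramid and 6640 ± 360 CPM in SERTfl/fl libraries, a difference of 2.81% (SD, n = 3 each). Both differences are within the SD of at least 1 of the groups. On TMM-scaled CPM they were 1.46% in labelled females (96.9 CPM, against 175 CPM unscaled) and 1.89% in labelled males (126 CPM, against 186 CPM unscaled). With 3 libraries against 3 an exact permutation test cannot go below p = 0.1.

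Both subunits shifted alike. Large-subunit genes summed to 3835 ± 35.3 CPM in labelled-female SERTPyramid and 3735 ± 112 CPM in labelled-female SERTfl/fl libraries, and to 3867 ± 269 CPM in labelled-male SERTPyramid and 3763 ± 203 CPM in labelled-male SERTfl/fl libraries (SD, n = 3 each). Small-subunit genes summed to 2836 ± 57.2 CPM in labelled-female SERTPyramid and 2760 ± 78 CPM in labelled-female SERTfl/fl libraries, and to 2875 ± 208 CPM in labelled-male SERTPyramid and 2792 ± 152 CPM in labelled-male SERTfl/fl libraries. The ratio of large to small sums was 1.34 to 1.37 in all 12 libraries, whatever the total.

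**Figure D2:**
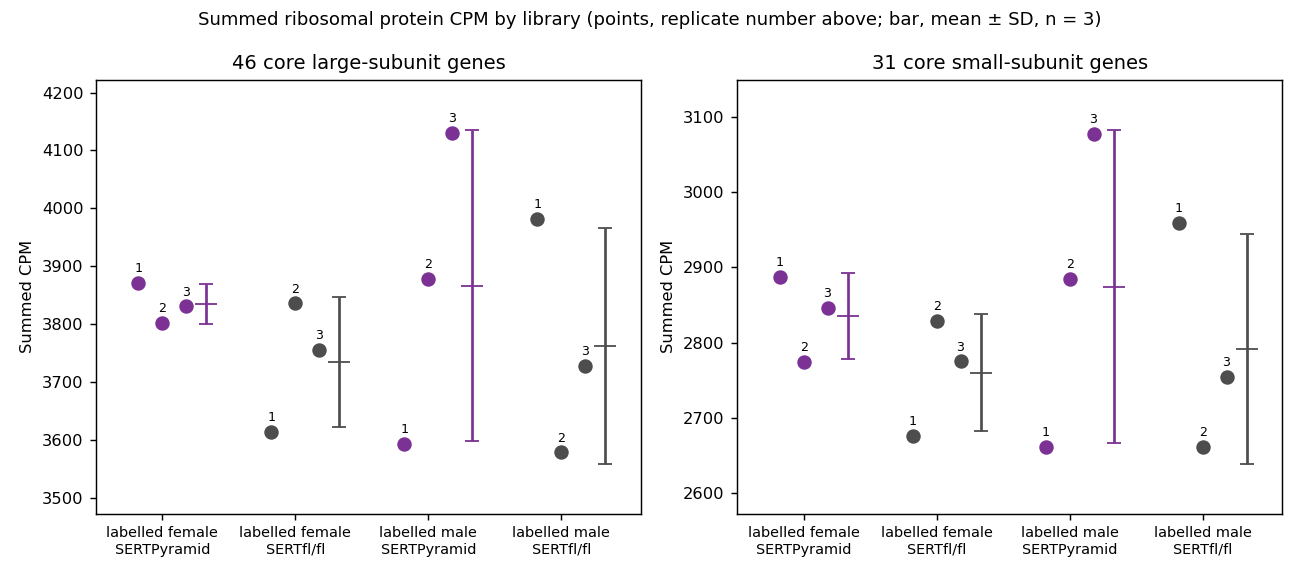
Summed CPM of core large-subunit genes (left) and core small-subunit genes (right) in each library; points are libraries with their replicate number, bars are mean ± SD (n = 3), and the axes do not start at 0. Labelled-male SERTPyramid replicate 3 is highest and labelled-male SERTPyramid replicate 1 and SERTfl/fl replicate 2 lowest for both subunits, and the genotypes overlap.

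Gene by gene the same libraries stood at the ends. Labelled-male SERTPyramid replicate 3 was the highest library for 46 of the 82 genes, and labelled-male SERTfl/fl replicate 1 for 12. Labelled-male SERTPyramid replicate 1 was the lowest for 25, labelled-male SERTfl/fl replicate 2 for 18 and labelled-female SERTfl/fl replicate 1 for 16. Of genes with a TOP-like start, 7 of 13 were highest in labelled-male SERTPyramid replicate 3, as were 26 of 44 without one. Among the 77 genes with a mean of at least 10 CPM, the highest library exceeded the lowest by 1.08-fold (Rpl3) to 1.47-fold (Rpl13a), with a median of 1.2-fold. The median coefficient of variation among replicates was 3.3% in labelled-female SERTPyramid and 3.79% in labelled-female SERTfl/fl libraries, and 7.44% in labelled-male SERTPyramid and 6.42% in labelled-male SERTfl/fl libraries.

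**Figure D3:**
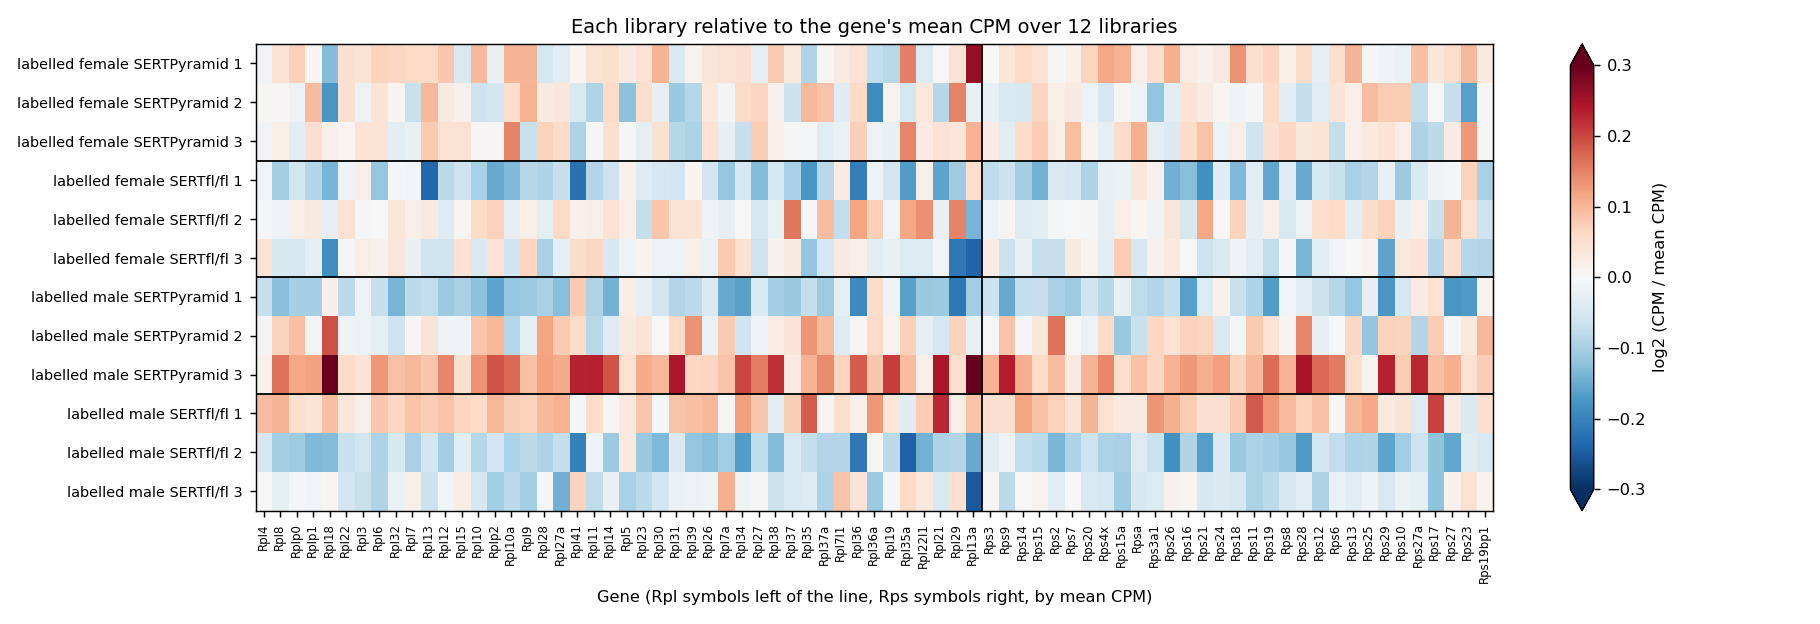
Each gene's CPM in each library relative to its mean over 12 libraries (log2, colour clipped at -0.3 and 0.3), for genes with a mean of at least 10 CPM that are reported here. Whole rows share a colour: labelled-male SERTPyramid replicate 3, the highest library for 46 of the 82 genes tested, is mostly red, and labelled-male SERTPyramid replicate 1 and SERTfl/fl replicate 2 are mostly blue.

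Other transcripts also differed between these libraries. The 13 mitochondrially encoded mRNAs summed to 17414 CPM in labelled-male SERTPyramid replicate 3 and 21755 CPM in labelled-male SERTPyramid replicate 1, the lowest and highest of all 12. Choroid plexus markers (10 of 10 detected) summed to 75.2 to 1418 CPM in labelled-female SERTPyramid and 1102 to 1462 CPM in labelled-female SERTfl/fl libraries. They summed to 552 to 2773 CPM in labelled-male SERTPyramid and 1348 to 2027 CPM in labelled-male SERTfl/fl libraries, with the maximum in SERTPyramid replicate 1. The part of these transcripts in the shift of ribosomal protein genes was not tested. With mitochondrial counts taken out of the total, the difference between genotypes was 173 CPM in labelled females and 185 CPM in labelled males, against 175 and 186 CPM with them.

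Whether loss of the transporter changed ribosomal protein mRNA was asked for each gene with edgeR's quasi-likelihood test on all 17631 genes passing the filter, with Benjamini-Hochberg adjustment. At an adjusted p of 0.05, 0 of 82 ribosomal protein genes were called for genotype averaged over the labelled sexes, in labelled females, in labelled males or for the difference between them. The share called among all genes was also 0% in each. At an unadjusted p under 0.05 the averaged contrast held 4 genes (3 above and 1 below 0; 4.88%, against 6.49% of all genes). Labelled females held 5 (4 above, 1 below; 6.1%, against 8.04%), labelled males 3 (2 above, 1 below; 3.66%, against 3.16%) and the difference 1 (1.22%, against 4.45%). With all 12 libraries these shares were near or below the background. DESeq2 and limma voom also called 0 genes of the family in each contrast. Over all 17631 genes DESeq2 called 1 in labelled females and 1 for the difference, and voom called 0 in each contrast. At an unadjusted p under 0.05 DESeq2 had 3 genes in the averaged contrast (3.66%, against 4.71% of all genes), 4 in labelled females (4.88%, against 5.98%), 1 in labelled males (1.22%, against 1.75%) and 1 for the difference (1.22%, against 2.84%). Voom had 4 (4.88%, against 10.6%), 8 (9.76%, against 13.3%), 3 (3.66%, against 4%) and 3 (3.66%, against 5.44%) in the same contrasts.

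These counts rest on single libraries. Without labelled-male SERTPyramid replicate 1, the library with the most choroid plexus and mitochondrial mRNA, 20 genes of the family had an unadjusted p under 0.05 in the averaged contrast (19 above, 1 below; 24.4%, against 6.69% of all genes). In labelled males there were then 15 (14 above, 1 below; 18.3%, against 5.2%) and for the difference 7 (1 above, 6 below; 8.54%, against 6.63%). None of them passed an adjusted p of 0.05 by edgeR, and 0 of all 17918 genes did. Leaving out labelled-male SERTfl/fl replicate 1 gave 7 genes in the averaged contrast (8.54%, against 10.1% of all genes). In labelled males it gave 5 (6.1%, against 6.32%). Leaving out labelled-male SERTPyramid replicate 3 or SERTfl/fl replicate 2 gave 0 in labelled males (against 2.54% and 2.04% of all genes). In the averaged contrast these omissions gave 2 (2.44%, against 4.75%) and 1 (1.22%, against 4.57%). The averaged count was 0 without labelled-female SERTPyramid replicate 3, against 5.7% of all genes. It was 1 (1.22%, against 5.7%) without labelled-female SERTfl/fl replicate 1. The labelled-female count was 1 after either omission (1.22%, against 6.5% and 5.85%). It was 7 without labelled-female SERTfl/fl replicate 2 (8.54%, against 5.82%).

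Fold changes were small. The median log2 fold change of the 82 genes, SERTPyramid over SERTfl/fl, was 0.029 averaged over labelled sexes, 0.020 in labelled females and 0.028 in labelled males, beside medians of -0.001, -0.000 and 0.002 over all genes tested. It was above 0 for 61, 55 and 59 of the 82 genes in these contrasts, against 49.3%, 49.9% and 50.5% of all genes. The members share libraries and shift together, so these counts are not independent observations. For the 77 genes with a mean of at least 10 CPM the averaged change lay between -0.05 and 0.18, with a median SE of 0.044. The median in labelled males was -0.014 without labelled-male SERTPyramid replicate 3 and -0.012 without labelled-male SERTfl/fl replicate 2, and either omission brought the averaged median to 0.008. In labelled females the median was 0.003 without SERTfl/fl replicate 1, the library of that label with 20646 Xist counts and 1 Y-linked count. Without SERTfl/fl replicate 1 of the labelled males it was 0.066 there.

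In labelled females, 16 of 82 genes (19.5%) had all 3 SERTPyramid libraries above all 3 SERTfl/fl libraries in CPM and 0 had them all below, against 11.8% above and 6.99% below among all genes. On TMM-scaled CPM the split was 11 above and 2 below, against 9.48% and 9.38% of all genes. In labelled males 0 genes of the family were apart in either direction, against 4.09% above and 2.66% below among all genes. Fitting the 6 labelled-female libraries alone called 0 of 82 genes of the family, against 2.43% of 17108 genes, and 9 had an unadjusted p under 0.05 (7 above, 2 below; 11%, against 13.9% of all genes). Some marker sums of other cells also stood apart in labelled females. Those of pyramidal neurons, choroid plexus, microglia, oligodendrocytes and dividing progenitors overlapped between genotypes. Dentate granule markers (4 of 4 detected) summed to 249 to 274 CPM in SERTPyramid and 281 to 344 CPM in SERTfl/fl libraries, with no overlap. Red blood cell markers (6 of 6) summed to 44.3 to 56.4 CPM in SERTPyramid and 58.8 to 67.9 CPM in SERTfl/fl libraries. Endothelial markers (6 of 6) were narrowly apart, at 200 to 223 CPM in SERTPyramid and 224 to 235 CPM in SERTfl/fl libraries. The part of these cell types in the labelled-female values was not tested.

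**Figure D4:**
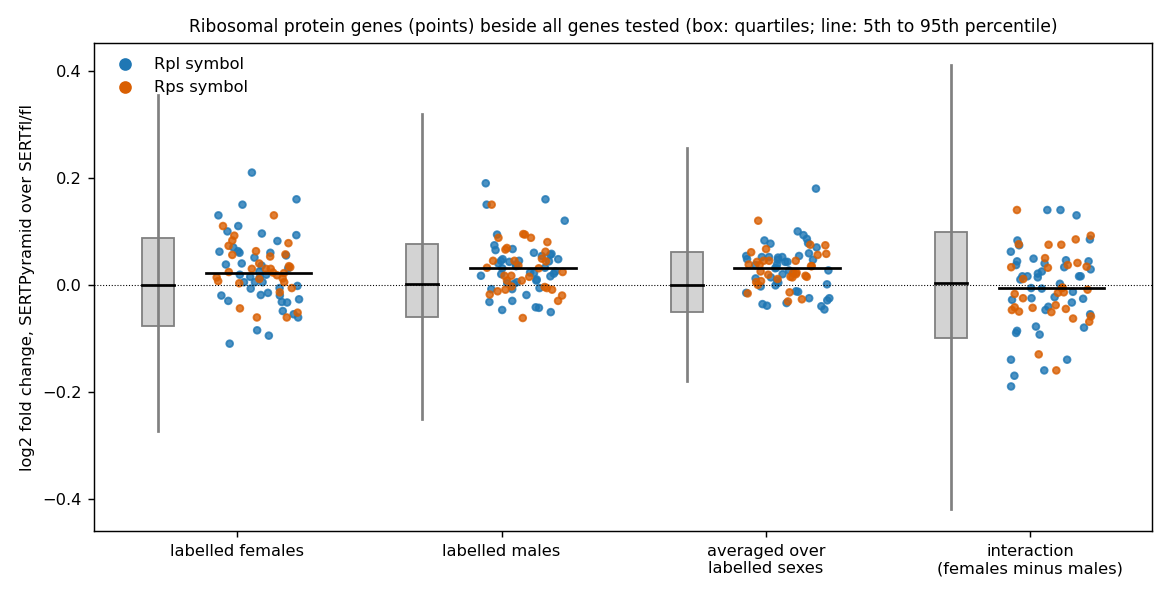
Log2 fold changes (SERTPyramid over SERTfl/fl; for the interaction, labelled females minus labelled males) of 77 ribosomal protein genes with a mean of at least 10 CPM (points; line, their median) beside all 17631 genes tested (box, quartiles; vertical line, 5th to 95th percentile). The points lie within the spread of all genes, with medians slightly above 0 except in the interaction.

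None of the genes named next passed adjustment. Rps28, near the mRNA exit of the small subunit, had 54.6, 49.9 and 53.7 CPM in labelled-female SERTPyramid libraries, against 47.2, 51.8 and 47.7 CPM in labelled-female SERTfl/fl libraries. It had 51.3, 58 and 62.2 CPM in labelled-male SERTPyramid libraries, against 55, 46.6 and 51.3 CPM in labelled-male SERTfl/fl libraries. Its groups overlapped under both labels, with an averaged log2 fold change of 0.12 ± 0.050 (SE; edgeR adjusted p = 0.756).

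Rpl13a, also known outside the ribosome for silencing inflammatory mRNAs, had 15.7, 12.9 and 14.1 CPM in labelled-female SERTPyramid libraries, against 13.6, 11.9 and 11.1 CPM in labelled-female SERTfl/fl libraries. In labelled males it had 12.2, 12.9 and 16.2 CPM in SERTPyramid and 13.9, 11.8 and 11 CPM in SERTfl/fl libraries. Both pairs overlapped, and its exons share bases with other genes as given above; the averaged log2 fold change was 0.18 ± 0.081 (SE; edgeR adjusted p = 0.756). Rps27l was the single gene below 0 at an unadjusted p under 0.05 in the averaged contrast. It had 9.63, 7.88 and 8.34 CPM in labelled-female SERTPyramid libraries, against 11.1, 10.6 and 8.73 CPM in labelled-female SERTfl/fl libraries. It had 9.74, 8.73 and 9.69 CPM in labelled-male SERTPyramid libraries, against 10.5, 9.13 and 10.2 CPM in labelled-male SERTfl/fl libraries. These overlap in both, with an averaged log2 fold change of -0.17 ± 0.075 (SE; edgeR adjusted p = 0.756). Next below 0 came Rpl4, Rpl32 and Rpl24, with -0.039 ± 0.033, -0.034 ± 0.036 and -0.18 ± 0.21, while Rpl13 stood above 0 with 0.083 ± 0.043.

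In labelled females Rpl10a had 84.5, 81.6 and 87.3 CPM in SERTPyramid libraries, against 71.8, 77.4 and 75.5 CPM in SERTfl/fl libraries. Rps15, near the decoding site, had 133, 135 and 136 CPM in SERTPyramid libraries, against 117, 126 and 123 CPM in SERTfl/fl libraries. Rpl13 had 98.2, 101 and 99.6 CPM in SERTPyramid libraries, against 80.2, 96.1 and 90.6 CPM in SERTfl/fl libraries. In these 3 genes every labelled-female SERTPyramid library lay above every SERTfl/fl library in CPM on library totals. On TMM-scaled CPM that held for Rpl10a and Rps15 but not for Rpl13. The lowest SERTfl/fl library in CPM was replicate 1 each time. The log2 fold changes were 0.16 ± 0.064, 0.13 ± 0.051 and 0.15 ± 0.061 (SE; edgeR adjusted p = 0.568, 0.568 and 0.569). Without SERTfl/fl replicate 1 that of Rpl13 was 0.080, while Rpl10a and Rps15 gave 0.13 and 0.10. With offsets for GC content Rpl10a gave 0.10 and Rps15 0.062. In labelled males the same genes gave 0.016 ± 0.064, -0.012 ± 0.051 and 0.020 ± 0.061, and the difference between labels had an adjusted p of 0.999 for each.

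Among libraries labelled male, Rpl18 had 147, 166 and 187 CPM in SERTPyramid and 155, 133 and 146 CPM in SERTfl/fl libraries, which overlap. Its log2 fold change was 0.19 ± 0.083 (SE; edgeR adjusted p = 0.999), with the top value again in replicate 3. Rpl41, the smallest ribosomal protein, had 73.3, 72.3 and 81.5 CPM in SERTPyramid and 69.2, 60.3 and 72.7 CPM in SERTfl/fl libraries, with 0.15 ± 0.074 (adjusted p = 0.999 by edgeR). Rpl38, whose mutation in mice alters the axial skeleton, had 37.3, 40.6 and 46.5 CPM in SERTPyramid and 39.1, 36.5 and 38.2 CPM in SERTfl/fl libraries, with 0.12 ± 0.064. Without SERTPyramid replicate 3 Rpl18 gave 0.12 and Rpl38 0.039, and without SERTfl/fl replicate 2 Rpl41 gave 0.075. Below 0 came Rpl23a at -0.66 ± 0.31 (SE; edgeR adjusted p = 0.999), a gene with at most 29 counts in a library. Rps25, Rpl4 and Rpl15 followed, at -0.062 ± 0.058, -0.047 ± 0.047 and -0.051 ± 0.051.

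The difference between labels had a single gene at an unadjusted p under 0.05. Rpl23a had 25, 21 and 28 counts in labelled-female SERTPyramid libraries, against 12, 20 and 16 in labelled-female SERTfl/fl libraries. It had 18, 11 and 13 counts in labelled-male SERTPyramid libraries, against 12, 24 and 29 in labelled-male SERTfl/fl libraries. The genotypes were apart in labelled females and overlapped in labelled males. The interaction was 1.25 ± 0.42 on the log2 scale (SE; edgeR adjusted p = 0.999), at a depth of at most 29 counts and with most of its sequence shared with other genes.

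Other genes were picked for their role rather than their values. Rplp0, the base of the stalk, had 286, 269 and 266 CPM in labelled-female SERTPyramid libraries, against 262, 276 and 263 CPM in labelled-female SERTfl/fl libraries. In labelled males it had 254, 290 and 295 CPM in SERTPyramid and 282, 253 and 271 CPM in SERTfl/fl libraries. The averaged log2 fold changes of the stalk genes Rplp0, Rplp1 and Rplp2 were 0.032 ± 0.041, 0.043 ± 0.041 and 0.012 ± 0.057 (SE; edgeR adjusted p = 0.897, 0.844 and 0.981). Rpl5 and Rpl11, which carry 5S rRNA into the large subunit and bind Mdm2 when free, gave -0.012 ± 0.036 and -0.003 ± 0.049. Rps6, the substrate of S6 kinases below mTOR, had 53, 52.6 and 48.7 CPM in labelled-female SERTPyramid libraries, against 48.9, 53.3 and 50.9 CPM in labelled-female SERTfl/fl libraries. Its values in labelled males were 48.2, 51.2 and 57 CPM in SERTPyramid and 51.3, 48.6 and 50.5 CPM in SERTfl/fl libraries. All these groups overlap, with an averaged Rps6 log2 fold change of 0.019 ± 0.041. The 13 core genes with a TOP-like start had a median averaged log2 fold change of 0.045, against 0.027 for the 44 matched genes without one. Those 44 include genes such as Rpl7a and Rpl27a, with a pyrimidine run across the start but no C at the first base.

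Of the family, 4 genes are X-linked: Rpl10, Rpl36a, Rpl39 and Rps4x. Rpl36a had 32.2, 29.7 and 33.5 CPM in labelled-female SERTPyramid libraries, against 33.6, 35.6 and 33.1 CPM in labelled-female SERTfl/fl libraries. In labelled males it had 35.2, 35.3 and 35.8 CPM in SERTPyramid and 37.1, 34 and 31.4 CPM in SERTfl/fl libraries. Rpl39, in the peptide tunnel, had 57.1, 53.4 and 53.1 CPM in labelled-female SERTPyramid libraries, against 57, 58.3 and 57.4 CPM in labelled-female SERTfl/fl libraries. Both overlapped between genotypes, with labelled-female log2 fold changes of -0.11 ± 0.065 and -0.095 ± 0.062 (SE; edgeR adjusted p = 0.7 and 0.738). Without SERTPyramid replicate 2 that of Rpl36a was -0.067. Rpl10 and Rps4x gave 0.025 ± 0.065 and 0.024 ± 0.057 there. Rps4x had 106, 94.5 and 95.9 CPM in labelled-female SERTPyramid libraries, against 96.3, 95.9 and 95.6 CPM in labelled-female SERTfl/fl libraries, so SERTfl/fl replicate 1, which had 20646 Xist counts, did not stand apart.

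Genes that build, supply or control the ribosome were described in the same way. Of 76 mitochondrial ribosomal protein, 11 elongation factor, 38 initiation factor, 48 ribosome biogenesis and 23 translation control genes tested, 0 passed an adjusted p of 0.05 in any contrast, by edgeR. Averaged over labelled sexes their median log2 fold changes were 0.016, -0.011, -0.028, -0.012 and -0.017, beside 0.029 for the cytosolic family. At an unadjusted p under 0.05 there were 1, 0, 0, 2 and 1 genes above 0 and 1, 0, 1, 1 and 1 below it, in the order of these lists. Over all genes the share at that p, both directions together, was 6.49%. Initiation factor genes were above 0 for 10 of 38 in the averaged contrast, against 49.3% of all genes. In labelled females 8.04% of all genes had an unadjusted p under 0.05, as did 3 of 38 initiation factor genes, all below 0. Their sum was 6271 to 6333 CPM in labelled-female SERTPyramid and 6346 to 6500 CPM in labelled-female SERTfl/fl libraries, with no overlap, and 6196 to 6456 CPM in labelled-male SERTPyramid and 6367 to 6486 CPM in labelled-male SERTfl/fl libraries, with overlap. Fau, made as a ubiquitin-like fusion with Rps30, had 86.9, 93.4 and 94.4 CPM in labelled-female SERTPyramid libraries, against 81.3, 86.6 and 79.7 CPM in labelled-female SERTfl/fl libraries. In unscaled CPM these are narrowly apart, at 86.9 against 86.6. In labelled males Fau had 82, 89.3 and 98.8 CPM in SERTPyramid and 91.5, 81.4 and 87.4 CPM in SERTfl/fl libraries, which overlap. Its averaged log2 fold change was 0.087 ± 0.045 (SE; edgeR adjusted p = 0.756). The scaffold protein Rack1 gave 0.012 ± 0.040. Named from the other lists, Ppan, a pre-rRNA processing factor, gave 0.18 ± 0.067, Mrpl4 0.15 ± 0.048 and Mrps18b -0.16 ± 0.066 (SE; edgeR adjusted p = 0.756 for each). Zfp598, a ubiquitin ligase that senses collided ribosomes, gave 0.14 ± 0.060, and the S6 kinase family gene Rps6ka3 gave -0.087 ± 0.040. Ncl, the nucleolar protein nucleolin, gave -0.080 ± 0.031 and the initiation factor gene Eif2s1 gave -0.088 ± 0.038. Eif4g2 gave -0.057 ± 0.031, and the elongation factor genes Eef1a2 and Eef1d gave -0.080 ± 0.041 and 0.031 ± 0.036.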

How the data were processed

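RNA was measured in 12 pools of dorsal hippocampus, with TruSeq libraries made from total RNA, per the labels. The deposited table holds raw read counts per Ensembl gene made by the authors; the build is mm10, per the submitters' processing notes, and no source used here gives the aligner, annotation, strand setting or read length. The table had 0 entries naming no gene and 0 unmapped columns. Symbols, transcript lengths and overlaps came from the GENCODE annotation of GRCm38, and start sequences from RefSeq. CPM used library totals. Tests used edgeR 4.0.16 (filterByExpr, TMM, robust quasi-likelihood, 4 groups) in R 4.3.3, adjusted over all genes by the Benjamini-Hochberg method at 0.05 and tested on simulated data. The SE of a log2 fold change is its size divided by √F. Named genes were the 4 with the smallest p above and below 0 per contrast, the 5 highest and 5 lowest levels, paralogs, X-linked genes and the 2 with the smallest averaged p per other list; stalk, 5S and Rps6 genes were added for their role. The members, lists and tests were chosen with earlier results of these data known. Alternatives were DESeq2 1.42.0, limma 3.58.1 voom, other scalings, filters and offsets, a replicate block, a subset fit, and leaving out libraries. No libraries of a group agreed within sampling noise. A few genes that these rules would name are left out of the text and plots, though counts and sums include them.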

Additional observations from a re-analysis of the deposited data

How the results depend on the processing

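Under all 98 combinations of contrast and alternative run, 0 ribosomal protein genes were called. Most alternatives also called 0 of all genes tested. The largest all-gene counts were 415 of 17108 (labelled females fitted alone) and 144 of 18008 (averaged, without labelled-male SERTPyramid replicate 2). With no filter the counts were 66, 103, 5 and 14 of 34328 (averaged, labelled females, labelled males and difference between labels). For 32 pairs of named gene and contrast, 750 alternative values gave 0 reversals and 0 adjusted p under 0.05, the smallest being 0.0534 (Rpl10a, labelled females). The pairs were those with the smallest p on each side of 0 in these same data. Their lack of reversals is therefore no independent check. Leaving out each library gave median log2 fold changes of 0.008 to 0.056 (averaged), 0.003 to 0.04 (labelled females), -0.014 to 0.079 (labelled males) and -0.048 to 0.033 (difference between labels). Same-numbered libraries correlated between -0.225 and 0.234, so numbers were not taken as pairs; with the replicate block 0 genes were called and the averaged median was 0.029. Changes below about the median SE cannot be resolved with 3 pools per group, and larger ones were not called either. Averaged over labelled sexes, Rps28 at 0.12 ± 0.050 and Rpl13a at 0.18 ± 0.081 (SE) each had an edgeR adjusted p of 0.756. Rpl23a and Rpl24 are limited by depth.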
